A study of Mus musculus with 8 samples.

Results

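Gene expression of 2 lines of MEFs, connective tissue cells cultured from mouse embryos, was compared by RNA-seq in normal medium, before any glucose starvation. The comparison used 4 of the 8 libraries of the series, 2 of Pontin WT and 2 of Pontin RA MEFs, and was chosen by genotype and medium alone. The other 4 libraries hold the same lines under glucose starvation and served to estimate the spread of each gene and as a later check. Per the study's methods, Pontin f/f MEFs immortalized by serial passage received a lentivirus for Flag-tagged Pontin, either WT or with both methylated arginines replaced by alanine (RA), were selected with hygromycin, and then lost endogenous Pontin through a Cre virus. All groups therefore share the floxed background, the tagged copy and the Cre virus. Each Pontin form is represented by a single stably expressing line, so that the Pontin form and the history of the line cannot be told apart.

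Pontin, encoded by Ruvbl1, is an AAA+ ATPase that forms a complex with Reptin (Ruvbl2) and works in chromatin remodelling and histone acetylation complexes such as INO80, SRCAP and TIP60. It acts as a coactivator or corepressor for several transcription factors. MEFs are rich in collagens, contractile proteins and secreted matrix, and cycle actively in serum. Genes that respond to interferon, a signal of viral infection, form the most marked difference between the lines in normal medium, and the account here concerns the remaining genes.

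Values are CPM, read counts relative to a library size that the authors scaled, and differences are RA minus WT on the log2(CPM + 1) scale. Reads assigned to genes, as recovered from the CPM values, numbered 44422994 and 48401807 in WT and 43205841 and 52337165 in RA. These are not library sizes, and mates may be counted separately in them. Fibroblast markers were present, with 10 of 12 at a CPM of 1 or more in all 4 samples. Of the defining fibroblast markers, Lum stood between 0.046 and 0.363 and Fap between 0.363 and 0.736 in the 4 samples. Blood cell markers included 4 of 12 at 0 in all 4 samples, Ptprc among them, and 3 at 1 or more in all 4, with Csf1r between 10.4 and 14.3, Cd14 between 7.17 and 7.72 and Cd68 between 1.93 and 2.67. Of 9 epithelial markers 7 were under 1 in all 4 samples, while Krt19 stood between 81.7 and 99.6. Skeletal muscle markers were all 9 under 1. In bulk RNA, fewer cells of a type and less RNA per cell cannot be told apart.

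Ruvbl1 stood at 28.4 and 27.6 in WT and at 36.8 and 32.0 in RA, so that both RA samples lay above both WT samples. The log2 difference was 0.29 (SE 0.0646, limma BH-adjusted p = 0.00946), and it was 0.19 without RA replicate 1 (limma BH-adjusted p = 0.0838), 0.31 without WT replicate 1 (limma BH-adjusted p = 0.0506) and 0.27 without WT replicate 2 (limma BH-adjusted p = 0.0732). The values of this gene may pool reads of the tagged copy with any of the endogenous gene, and show nothing of the alanine substitutions. By immunoblot the paper found the tagged forms at protein levels similar to endogenous Pontin. Ruvbl2 stood at 79.4 and 81.8 in WT and at 82.3 and 87.1 in RA, a difference of 0.07 (limma BH-adjusted p = 0.38).

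Outside the interferon-responsive genes the lines differed in many genes by small amounts. A gene was called at a BH-adjusted p under 0.05 in limma, which 9.63% of 16232 tested genes reached, 6.68% higher in RA and 2.95% lower. A list of 282 interferon-responsive genes was set aside, of which 229 were tested, 173 were higher in RA and 0 were lower. Among the remaining 16003 genes 8.69% were called, 911 higher in RA (5.69%) and 479 lower (2.99%). The median difference of the higher genes was 0.23, a 1.17-fold change, and that of the lower genes -0.26, against 0.86 for the called interferon-responsive genes. Only 16 genes outside the list reached 2-fold on the log2(CPM + 1) scale, a difference of 1 (0.10%), all higher in RA. Low genes can fall short on this scale, such as Il6, with a 2.17-fold ratio of the mean CPM and a difference of 0.86. No gene was under a CPM of 0.3 in both samples of 1 line and at 1 or more in both of the other. Among the fits that left out 1 sample the counts fell most without WT replicate 1, to 301 higher and 105 lower. They were 460 and 206 without WT replicate 2 and 510 and 269 without RA replicate 2.

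The split by direction followed the scaling of the libraries. As deposited, 65.5% of the calls outside the list were higher in RA, and this share was 33.7% with total-read scaling, 46.6% with quantile normalization and 53.2% with median-ratio scaling. The median over all genes moved only from 0.01 to -0.04 between these scalings. A difference of about 0.2 or less is therefore reported below with the count under other scalings where that changes its direction.

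The genes most raised outside the list lay largely on top of interferon-responsive genes. By the rule used here, the 12 called genes with the highest difference at a mean CPM of 10 or more were Olfr56, Art3, Gm44148, Gm43302, Gm20663, Msln, Gm28177, Prl2c2, Dhx58os, Gm44935, Prl2c3 and Lrrn4cl. In the GENCODE M21 annotation 7 of the 12 overlap a listed gene. Olfr56 shares exons with Ifi47, Art3 with Cxcl10, Gm44148 with Usp18, Gm43302 with Gbp6 and Gbp10, Gm20663 with Gm4070 and Dhx58os with Dhx58. How reads over shared bases or on opposite strands were assigned is not given in the sources used here, so none of these 7 can be read as the level of 1 gene. Among all tested genes outside the list 72 overlap the body of a listed gene, and 36 of these were higher and 0 lower in RA. Overlap could be looked up only for the 15704 tested gene symbols present in this annotation.

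**Figure D1:**
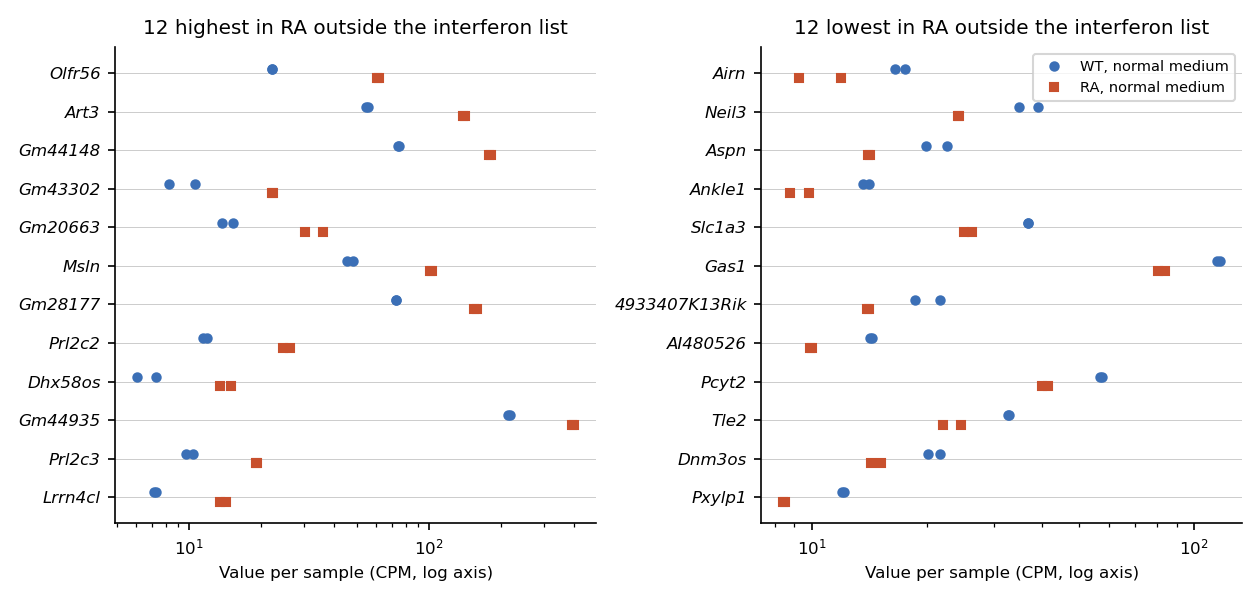
CPM in each sample in normal medium (log axis) for the genes at both ends of the difference outside the interferon list, 12 at each end; circles are the WT and squares the RA samples. The samples of the lines do not overlap for any of these genes, which the rule required, and the gaps on the left are wider than those on the right.

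The other 5 of the 12 were not found to overlap a listed gene, which could not be looked up for Gm44935. Msln, which encodes the surface glycoprotein mesothelin, stood at 45.7 and 48.2 in WT and 101 and 103 in RA (log2 difference 1.11, SE 0.0432, limma BH-adjusted p = 2.12e-11). Prl2c2, which encodes proliferin, a prolactin family hormone secreted by growing fibroblasts, stood at 11.9 and 11.4 in WT and 24.5 and 26.3 in RA, a 2.17-fold ratio of the means. Its near-identical copy Prl2c3 stood at 9.7 and 10.4 in WT and 19 and 19.1 in RA, and the pair may share reads. Lrrn4cl, a membrane protein gene, stood at 7.17 and 7.26 in WT and 13.4 and 14.2 in RA. Gm44935, which has no entry in the annotation used, stood at 213 and 218 in WT and 402 and 395 in RA. All 12 genes kept their call and direction in each of the 14 alternatives run for named genes.

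Of the 16 genes past 2-fold on that scale 9 were not found to overlap a listed gene, among them Msln and Prl2c2 and others at lower levels. Anxa8, an annexin, rose from 0.957 and 1.13 to 5.01 and 4.03, and A630023A22Rik had almost the same values. Cd55, an inhibitor of complement, rose from 4.67 and 3.51 to 12.1 and 10.8. Cd93, a C-type lectin receptor, rose from 1.09 and 1.77 to 5.06 and 4.44, and Olr1, the receptor of oxidized LDL, from 1.67 and 1.65 to 4.69 and 4.53. Dcn, the collagen-binding proteoglycan decorin, rose from 5.26 and 6.53 to 13.3 and 13.8. In each of these the RA samples lay above the WT samples by more than the samples of a line differed.

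Promoters were searched for the interferon-stimulated response element (ISRE), the site bound by interferon-activated factors, as GAAA, any 2 bases and GAAA on either strand. The windows ran from 250 bases before to 50 after each RefSeq start (GRCm38.p6), and 10351 tested genes had one. The letters were present in 3.91% of these genes and in 48.5% of the 130 called interferon-list genes with a window. They were present in 6.35% of the 614 higher genes outside the list and in 6.02% of the 598 with no overlap found. Of the 329 lower genes 1.82% held them. The stretches below are 4 of the higher genes that hold the letters, shown because 3 of them are linked to interferon by general knowledge though they were not on the list; capitals mark the motif, and each stretch reads 5′ to 3′ in the direction of the gene.
Clec2d, chr6:129180396-129180465, plus strand: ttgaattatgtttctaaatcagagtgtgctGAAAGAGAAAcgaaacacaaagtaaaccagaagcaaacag
Serpinb9, chr13:33004465-33004534, plus strand: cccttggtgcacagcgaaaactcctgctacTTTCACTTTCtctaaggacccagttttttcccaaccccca
Rbm43, chr2:51935348-51935413, minus strand: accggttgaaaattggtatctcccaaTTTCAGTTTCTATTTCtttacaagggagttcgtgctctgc
Ppp1r15a, chr7:45526449-45526518, minus strand: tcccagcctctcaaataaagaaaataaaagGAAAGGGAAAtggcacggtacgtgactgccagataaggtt

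Clec2d, the ligand of an inhibitory natural killer cell receptor, stood at 4.67 and 6.01 in WT and 8.76 and 9.73 in RA (log2 difference 0.70, SE 0.109, limma BH-adjusted p = 0.00049). Serpinb9, an inhibitor of granzyme B, stood at 17.4 and 17.3 in WT and 25.1 and 23.8 in RA. Rbm43 stood at 12.1 and 11.1 in WT and 16.7 and 15 in RA. Ppp1r15a, which encodes the stress-induced phosphatase subunit GADD34, stood at 39.6 and 37.3 in WT and 49.6 and 53.7 in RA. These 4 genes, and the low-level genes of the previous paragraph other than Dcn, were chosen after their values were seen. With the overlapping genes and 15 such further interferon-linked genes also set aside, a choice made after seeing the data, 861 genes remained higher and 479 lower.

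The lowest genes changed less than the highest, and none was lower by 2-fold on the log2(CPM + 1) scale. The 12 with the lowest difference were Airn, Neil3, Aspn, Ankle1, Slc1a3, Gas1, 4933407K13Rik, AI480526, Pcyt2, Tle2, Dnm3os and Pxylp1, with differences from -0.65 to -0.47. Airn, the imprinted non-coding RNA of the Igf2r locus, stood at 17.5 and 16.5 in WT and 11.9 and 9.26 in RA (SE 0.108, limma BH-adjusted p = 0.000902). Neil3, a DNA glycosylase of dividing cells, stood at 39.1 and 34.8 in WT and 24.1 and 24.2 in RA. Slc1a3, a glutamate and aspartate transporter, stood at 36.7 and 36.8 in WT and 26.3 and 25 in RA. Pcyt2, an enzyme of phosphatidylethanolamine synthesis, stood at 56.7 and 57.4 in WT and 41.5 and 40 in RA, a difference of -0.48 (SE 0.0514, limma BH-adjusted p = 7.98e-06). The RA samples of these 4 genes lay below both WT samples, and those of Airn lay further apart from each other than its WT samples did.

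Several other low genes lost their call when a single sample was left out. Gas1, a membrane co-receptor of hedgehog signalling, stood at 117 and 115 in WT and 80.6 and 84.1 in RA. Tle2, a Groucho corepressor, stood at 32.8 and 32.6 in WT and 24.6 and 22 in RA. Dnm3os, the host transcript of miR-199a and miR-214, stood at 21.6 and 20.1 in WT and 15.2 and 14.3 in RA. Aspn, a small proteoglycan, stood at 19.9 and 22.6 in WT and 14 and 14.2 in RA, and its exons overlap Cenpp on the opposite strand, which was also lower (-0.27), a call lost without WT replicate 2. With all samples the differences of Ankle1, Gas1, Dnm3os and Pxylp1 were -0.53, -0.49, -0.47 and -0.47. They were -0.56, -0.48, -0.42 and -0.46 without WT replicate 1, where the calls of these genes were lost. Those of Ankle1 and Dnm3os were lost with a pseudocount of 0.1, those of Ankle1, Dnm3os and Pxylp1 were also lost without WT replicate 2 or RA replicate 2, and that of Dnm3os without RA replicate 1 or either starved RA replicate.

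The 38 lists of genes other than the interferon list were then examined by the number of members called, beside 5.69% of all genes outside that list called higher and 2.99% called lower. The lists are described by counts, and no test of a list as a whole was made. Called genes that the rule for named genes chose kept their call in each of the 14 alternatives unless a loss is given. Ccl2, Ptgs2, Ddit4, Hspa5, Syvn1, Atf6 and the genes given as not called fall outside that rule and were chosen after their values were seen.

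**Figure D2:**
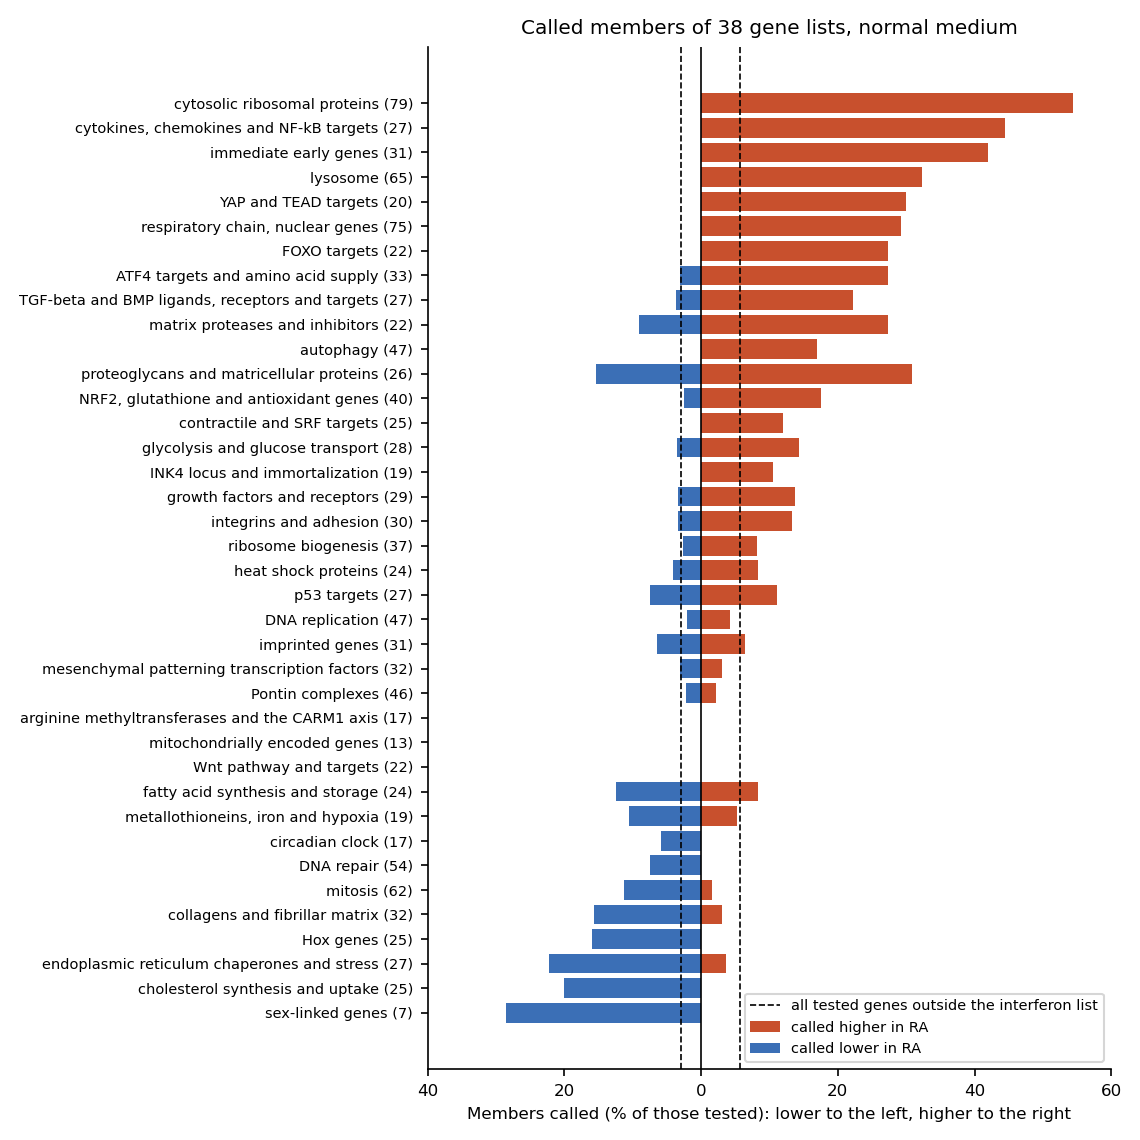
Percent of the tested members of each of 38 gene lists called higher (right) or lower (left) in RA in normal medium, with the number tested in brackets; dashed lines mark 5.69% and 2.99%, the shares of all tested genes outside the interferon list. Ribosomal protein genes have the largest share higher, at 54.4%, and cholesterol and endoplasmic reticulum genes lie on the lower side.

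Ribosomal protein genes held the largest share of higher members among the 38 lists. Of 79 cytosolic ribosomal protein genes 43 were higher and 0 lower, with a median difference of 0.15, and the difference was above 0 in all 79. Rps14 stood at 487 and 470 in WT and 605 and 586 in RA, a 1.24-fold ratio. Rps3 stood at 487 and 487 in WT and 604 and 593 in RA. Of 75 nuclear genes of the respiratory chain 22 were higher and 0 lower (median 0.13), such as Ndufb9, a subunit of complex I, at 73.5 and 74.3 in WT and 86.0 and 91.7 in RA. The 13 genes encoded by the mitochondrial genome had 0 called by limma (3 at an unadjusted p under 0.05, 1 by edgeR and 2 by DESeq2, and 4 lower with total-read scaling), and mt-Co1 stood at 6103 and 6212 in WT and 6011 and 6174 in RA.

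These small shifts varied with sample and scaling. The median ribosomal protein gene stood at -0.10 and -0.05 in the WT samples and at 0.03 and 0.12 in the RA samples, relative to the mean of the 4. The RA samples thus lay about as far from each other as the nearest samples of the lines did. The count of higher ribosomal genes was 6 without WT replicate 1, 22 without WT replicate 2, 21 without RA replicate 2 and 67 without RA replicate 1. It was 27 with total-read scaling, 17 with quantile normalization and 60 with the replicate block. The respiratory count was 3 without WT replicate 1, 10 without WT replicate 2, 8 without RA replicate 2 and 14 without either starved RA replicate, and 5 with total-read scaling. Many ribosomal protein genes also have processed copies that can take their reads.

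**Figure D3:**
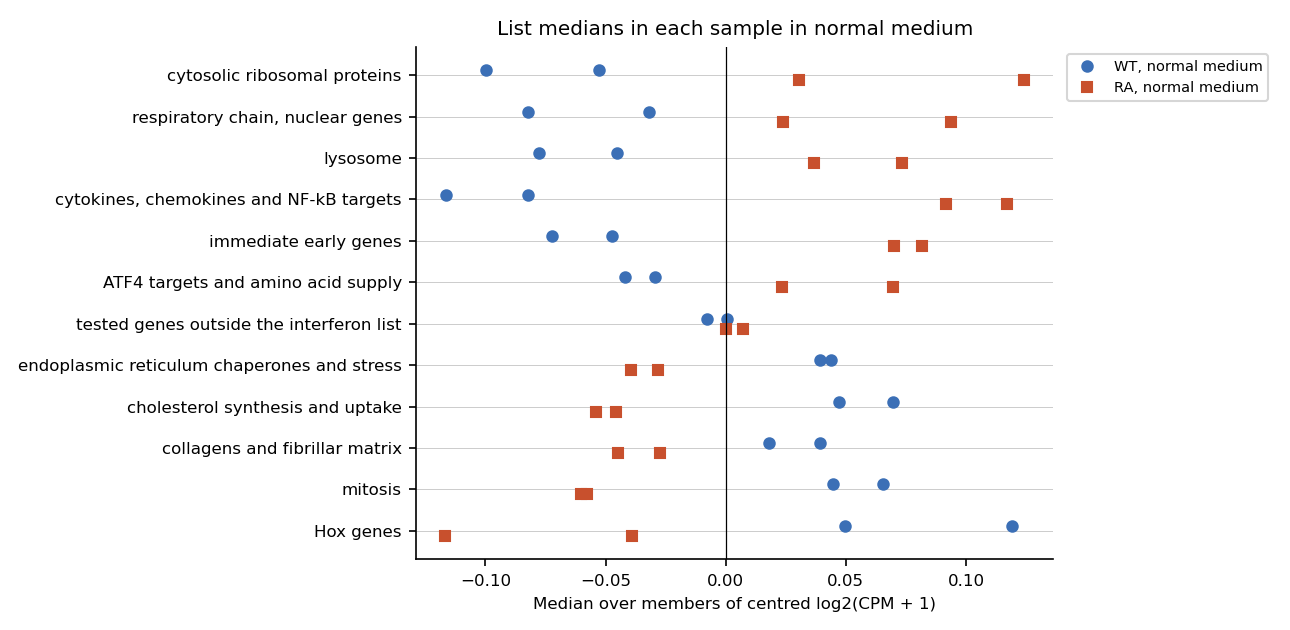
Median over the tested members of 11 gene lists, and over all tested genes outside the interferon list, of log2(CPM + 1) after subtracting each gene's mean of the 4 samples; circles are WT and squares RA samples in normal medium. The lines lie apart by more than the samples of a line for cytokine, immediate early, lysosome, cholesterol, endoplasmic reticulum and mitosis lists, among others. The ribosomal and Hox lists show the widest spread within a line.

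Of 65 lysosomal genes 21 were higher and 0 lower as deposited, and 15 were higher and 1 lower with total-read scaling. Npc2, which carries cholesterol out of the lysosome, stood at 129 and 137 in WT and 174 and 183 in RA (log2 difference 0.42, SE 0.0429, limma BH-adjusted p = 3.85e-06). Grn, the precursor of granulins, stood at 113 and 115 in WT and 134 and 147 in RA. Fuca1, a lysosomal fucosidase, stood at 29.4 and 29.0 in WT and 35.4 and 36.6 in RA. The count of higher members was 9 without WT replicate 1. Of 47 autophagy genes 8 were higher and 0 lower, and with total-read scaling 3 were higher and 2 lower. Sqstm1, the cargo receptor p62, stood at 184 and 184 in WT and 208 and 215 in RA. The autophagy count was 1 without WT replicate 1, 3 without WT replicate 2 and 3 without RA replicate 2.

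Several inflammatory genes outside the interferon list were higher in RA. Of 27 tested cytokine, chemokine and NF-kB target genes 12 were higher and 0 lower, and 8 were higher with total-read scaling. Il1rl1, which encodes the IL-33 receptor ST2, stood at 186 and 188 in WT and 311 and 287 in RA (log2 difference 0.67, SE 0.0443, limma BH-adjusted p = 1.43e-08). Il6 stood at 2.09 and 2.46 in WT and 5.33 and 4.53 in RA, a 2.17-fold ratio. Ccl2, which draws monocytes, stood at 143 and 153 in WT and 193 and 190 in RA. Ptgs2, the inducible cyclooxygenase, stood at 139 and 137 in WT and 190 and 182 in RA. Has2, a hyaluronan synthase, stood at 26.4 and 28.3 in WT and 39.4 and 36.6 in RA, and its call was lost without WT replicate 1 (limma BH-adjusted p = 0.0935). The count of higher members was 4 without WT replicate 1, 7 without WT replicate 2 and 6 without RA replicate 2. The summed level of 12 blood cell markers was 22 and 22.2 in WT and 24.9 and 25.5 in RA, with Csf1r the single marker called, and Ptprc had 0 reads in all 4 samples.

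Immediate early genes, which respond to growth factors and stress within minutes, included 13 of 31 higher and 0 lower. Nr4a1, an orphan nuclear receptor, stood at 35.9 and 35.1 in WT and 49.6 and 50.6 in RA. Dusp5, a phosphatase of ERK, stood at 35.2 and 35.9 in WT and 50.2 and 49.1 in RA. Klf4, a zinc finger factor, stood at 15.7 and 16.1 in WT and 21.4 and 22.7 in RA. Fos itself stood at 2.61 and 2.30 in WT and 2.39 and 2.02 in RA, and Egr1 at 24.2 and 23.8 in WT and 25.5 and 26.4 in RA, neither of which was called. The list count was 7 without WT replicate 1 and 8 without RA replicate 2, and with total-read scaling 10 were higher and 1 lower. Myc, among 19 genes of the INK4 locus and immortalization of which 2 were higher and 0 lower, stood at 106 and 107 in WT and 134 and 142 in RA. The other was Hmga2 (0.19), whose call was lost with quantile normalization and without WT replicate 1.

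Of 22 targets of FOXO, a factor active when insulin signalling is low, 6 were higher and 0 lower as deposited, and 4 were higher and 2 lower with total-read scaling. Txnip, an inhibitor of glucose uptake induced by glucose, stood at 24.9 and 24.5 in WT and 40.4 and 36.3 in RA (log2 difference 0.61, SE 0.106, limma BH-adjusted p = 0.00123). The transcript Gm15441, antisense to Txnip, had nearly equal values, so that the pair is 1 finding. Pdk4, a kinase that shuts pyruvate dehydrogenase, stood at 7.44 and 7.34 in WT and 12.6 and 10.7 in RA. Fbxo32, a ubiquitin ligase of muscle atrophy, stood at 5.28 and 6.13 in WT and 9.38 and 9.42 in RA. Gadd45a, a growth arrest gene, stood at 11.6 and 11.2 in WT and 16.8 and 15.2 in RA. These 4 had the largest differences among the called FOXO targets. Of 28 glycolysis and glucose transport genes 4 were higher and 1 lower, including Txnip and Pdk4.

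The carbohydrate response element (ChoRE), the site of the glucose-responsive factors of the MondoA and ChREBP family, was searched as CACGNG, any 5 bases and CNCGNG on either strand. It was present in 0.85% of the 10351 genes with a window and in 0.651% of the higher genes outside the list. The Txnip window holds it, shown because Txnip is a textbook glucose-responsive gene; capitals mark the motif.
Txnip, chr3:96557842-96557918, plus strand: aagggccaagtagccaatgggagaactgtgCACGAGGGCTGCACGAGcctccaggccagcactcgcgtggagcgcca

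Targets of ATF4, the factor of the amino acid and integrated stress responses, included 9 of 33 higher and 1 lower. Chac1, which degrades glutathione, stood at 16.9 and 17.5 in WT and 24.2 and 25.8 in RA (log2 difference 0.51, SE 0.045, limma BH-adjusted p = 6.06e-07). Trib3, a pseudokinase that inhibits AKT, stood at 21.4 and 20.4 in WT and 27.3 and 26.8 in RA. Vldlr, a lipoprotein receptor, stood at 10.7 and 10 in WT and 14.5 and 12.7 in RA. Atf4 itself differed by 0.13 (limma BH-adjusted p = 0.0628) and Ddit3, which encodes CHOP, by 0.05 (limma BH-adjusted p = 0.451). The lower member was Ddit4, an inhibitor of mTORC1, at 72.7 and 75.5 in WT and 65.2 and 63.2 in RA (-0.20). With total-read scaling 6 members were higher and 2 lower.

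Among 27 genes of endoplasmic reticulum chaperones and stress 6 were lower and 1 higher, and with total-read scaling 11 were lower and 0 higher. Xbp1, the factor spliced by IRE1, stood at 55.2 and 54.7 in WT and 45.2 and 46.0 in RA (log2 difference -0.26, SE 0.0414, limma BH-adjusted p = 0.000486). Herpud1, a component of protein degradation at this organelle, stood at 86.8 and 90.9 in WT and 72.2 and 75.8 in RA. Hspa5, the major chaperone BiP, stood at 1253 and 1286 in WT and 1152 and 1142 in RA, a difference of -0.15 (limma BH-adjusted p = 0.0488). Creld2 and Dnajc3, both induced by unfolded proteins, differed by -0.18 and -0.17. Their calls were lost without WT replicate 1 (limma BH-adjusted p = 0.19 and 0.0536), and that of Dnajc3 also without WT replicate 2 (limma BH-adjusted p = 0.069). Syvn1, a ubiquitin ligase, differed by -0.15. The single higher member was Atf6 (0.15). The count of lower members was 2 without WT replicate 1 and 3 without WT replicate 2.

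The endoplasmic reticulum stress element (ERSE), the site of ATF6 with NF-Y, was searched as CCAAT, any 9 bases and CCACG on either strand. It was found in 16 of 10351 genes with a window (0.155%) and in 8 of the 23 list members with one. It was found in 4 of the 6 lower members, and in 2 further lower genes, Zfp57 and Pan2. The 4 list members with the element that were not called were Hsp90b1 (-0.14), Pdia6 (-0.03), Calr (-0.02) and Canx (-0.02). Hsp90b1 (limma BH-adjusted p = 0.0701) and the called Hspa5 (-0.15, limma BH-adjusted p = 0.0488) lay close together on either side of the threshold. The stretches of the 4 lower members and of Calr and Canx are shown side by side, since they share the element but not the call; capitals mark it. Of the tested genes 2 held more than 1 of the 3 motifs.
Hspa5, chr2:34771995-34772073, plus strand: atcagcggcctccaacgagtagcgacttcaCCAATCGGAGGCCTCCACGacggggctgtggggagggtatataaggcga
Dnajc3, chr14:118937797-118937875, plus strand: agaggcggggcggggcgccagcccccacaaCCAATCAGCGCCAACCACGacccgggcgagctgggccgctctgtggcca
Creld2, chr15:88819490-88819568, plus strand: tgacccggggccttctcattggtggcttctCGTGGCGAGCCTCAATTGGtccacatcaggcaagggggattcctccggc
Syvn1, chr19:6046502-6046575, plus strand: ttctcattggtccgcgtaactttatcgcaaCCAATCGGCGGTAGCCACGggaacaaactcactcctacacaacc
Calr, chr8:84847045-84847123, minus strand: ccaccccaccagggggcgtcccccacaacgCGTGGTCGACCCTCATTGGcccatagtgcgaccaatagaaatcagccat
Canx, chr11:50325770-50325848, minus strand: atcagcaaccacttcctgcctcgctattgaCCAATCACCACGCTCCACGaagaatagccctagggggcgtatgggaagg

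**Figure D4:**
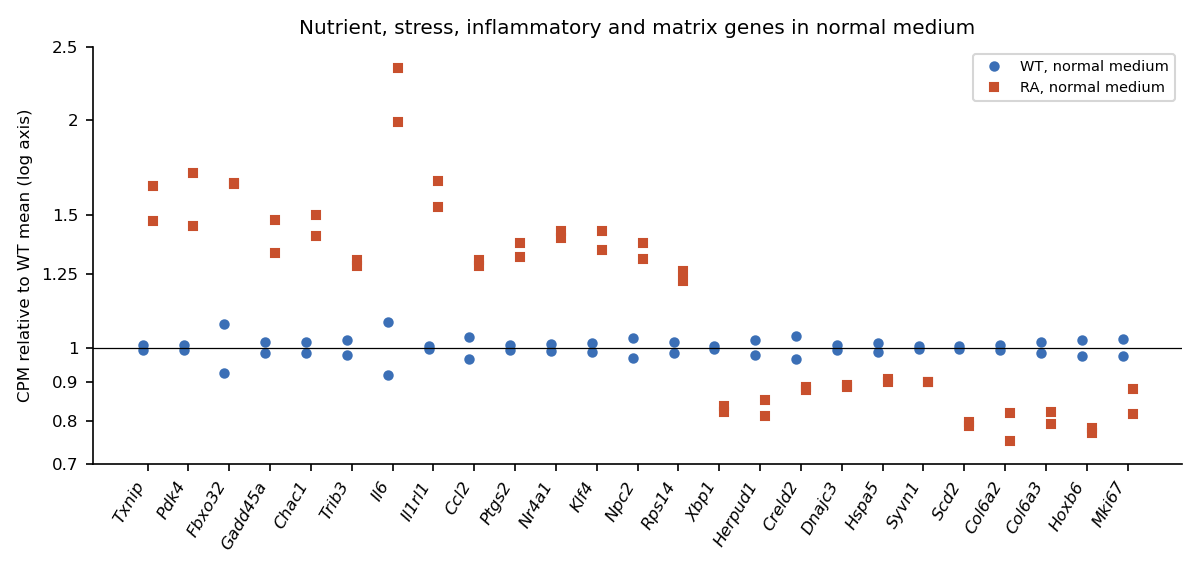
CPM of 25 genes in each sample in normal medium divided by the mean of the WT samples (log axis); circles are WT and squares RA samples. The RA samples of genes from Txnip to Rps14 lie above 1 and those from Xbp1 to Mki67 below it with no overlap between the lines in any of the genes.

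Other stress lists held calls in both directions. Of 40 NRF2, glutathione and antioxidant genes 7 were higher and 1 lower, led by Hmox1, heme oxygenase, at 64.8 and 65.7 in WT and 75.5 and 80.4 in RA. With total-read scaling 2 were higher and 1 lower. The count of higher genes was 1 without WT replicate 1, 3 without WT replicate 2, 2 without RA replicate 2, 12 without RA replicate 1 and 4 without either starved RA replicate. Of 24 heat shock genes 2 were higher and 1 lower as deposited, and 1 was higher and 3 lower with total-read scaling. The higher count was 0 without WT replicate 1 and 1 without WT replicate 2 or RA replicate 1. Of 19 metallothionein, iron and hypoxia genes 1 was higher (Ndrg1, 0.25) and 2 were lower, and the lower count was 0 without WT replicate 2 and 1 on leaving out any other sample. Of 27 p53 targets 3 were higher and 2 lower as deposited, and 3 were higher and 4 lower with total-read scaling.

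Of the cholesterol genes 20% were called and of the fatty acid genes 20.8%, beside 8.69% of all genes outside the interferon list. Of 25 cholesterol synthesis and uptake genes 5 were lower and 0 higher, and 11 were lower with total-read scaling. Hmgcs1, which makes the precursor of mevalonate, stood at 225 and 225 in WT and 203 and 191 in RA (log2 difference -0.19, limma BH-adjusted p = 0.0135). Its call was lost without WT replicate 1, WT replicate 2 or RA replicate 2, and the count of lower cholesterol genes was 0, 0 and 1 without these, 3 without RA replicate 1 and 2 without either starved RA replicate. Of 24 fatty acid genes 3 were lower, or 1 without WT replicate 1, and 2 higher, and with total-read scaling 6 were lower and 1 higher. Scd2, a fatty acid desaturase, stood at 1305 and 1320 in WT and 1033 and 1045 in RA (log2 difference -0.34, SE 0.0376, limma BH-adjusted p = 1.17e-05). Plin2, which coats lipid droplets, stood at 80.2 and 75.7 in WT and 106 and 106 in RA.

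Transcripts of matrix genes differed in both directions, and matrix protein was not measured in these data. Transcripts of all 3 main chains of collagen VI, a beaded filament around cells, were lower. Col6a2 stood at 83.2 and 84.4 in WT and 63.0 and 68.6 in RA (log2 difference -0.35, SE 0.0544, limma BH-adjusted p = 0.00052), Col6a3 at 171 and 165 in WT and 138 and 133 in RA, and Col6a1 at 202 and 203 in WT and 162 and 171 in RA. Col3a1 stood at 283 and 286 in WT and 245 and 233 in RA. Col1a1, at 1678 and 1697 in WT and 1555 and 1585 in RA, was not called (limma BH-adjusted p = 0.115). Of 32 collagen and fibril genes 5 were lower and 1 higher, and 11 were lower and 0 higher with total-read scaling.

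Genes of proteoglycans and matricellular proteins differed in both directions, with 8 of 26 higher and 4 lower. Beside Dcn, Fbln5, an elastic fibre protein, stood at 229 and 236 in WT and 315 and 316 in RA, and Aspn was the lowest. Of 22 matrix protease and inhibitor genes 6 were higher and 2 lower. Timp2, an inhibitor of metalloproteinases, stood at 485 and 494 in WT and 609 and 653 in RA. Timp1 stood at 115 and 118 in WT and 135 and 143 in RA. Plaur, the urokinase receptor, stood at 59.9 and 63.6 in WT and 76.7 and 79.4 in RA. Mmp2 was lower (-0.22), a call that was lost without WT replicate 1, WT replicate 2 or RA replicate 1.

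In the TGF-beta and BMP and the YAP and TEAD lists more genes were called higher than lower. The same held outside the interferon list as a whole (911 and 479), and the 2 lists had median differences of 0.04 and 0.03. Grem1, a secreted BMP antagonist, stood at 575 and 569 in WT and 902 and 875 in RA (log2 difference 0.63, SE 0.0378, limma BH-adjusted p = 3.25e-09), the largest among 27 TGF-beta and BMP genes with 6 higher and 1 lower. That count of higher genes was 3 with total-read scaling, 2 without WT replicate 1, 2 without WT replicate 2 and 3 without RA replicate 2. Of 20 YAP and TEAD targets 6 were higher and 0 lower. F3, tissue factor, stood at 111 and 111 in WT and 147 and 155 in RA, and Ctgf at 879 and 895 in WT and 1049 and 1119 in RA. Of 25 contractile genes 3 were higher and 0 lower as deposited, and 1 was higher and 2 lower with total-read scaling. Tagln, an actin-binding protein, stood at 636 and 641 in WT and 757 and 774 in RA. The contractile count was 1 without WT replicate 1 and 7 without RA replicate 1.

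Of 29 growth factor and receptor genes 4 were higher and 1 lower, with Hbegf, an EGF receptor ligand, at 80.1 and 73.9 in WT and 98.6 and 99.2 in RA. The 4 became 1 without WT replicate 1 or WT replicate 2 and 2 without RA replicate 2. Of 30 integrin and adhesion genes 4 were higher and 1 lower, with the hyaluronan receptor Cd44 at 457 and 449 in WT and 536 and 532 in RA. The 4 became 2 without WT replicate 1, WT replicate 2 or RA replicate 2. Of 22 Wnt genes 0 were called by limma (3 at an unadjusted p under 0.05, 1 by edgeR and 1 by DESeq2, and 1 lower with total-read scaling).

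Most cell cycle genes were not called, though 11.3% of the mitosis genes were lower, beside 2.99% of all genes outside the interferon list. Of 62 mitosis genes 7 were lower and 1 higher, with a difference below 0 in 58 and a median of -0.11, and with total-read scaling 22 were lower and 0 higher. Mki67, the proliferation marker Ki-67, stood at 240 and 228 in WT and 206 and 191 in RA (log2 difference -0.23, limma BH-adjusted p = 0.0112), a call lost without WT replicate 1 (limma BH-adjusted p = 0.146) or RA replicate 2 (limma BH-adjusted p = 0.105). The count of lower mitosis genes was 1 without WT replicate 1, 1 without WT replicate 2, 3 without RA replicate 2, 4 without either starved RA replicate and 11 without starved WT replicate 2. Of 47 DNA replication genes 2 were higher and 1 lower as deposited, and 1 was higher and 4 lower with total-read scaling. The higher count was 1 without WT replicate 1, WT replicate 2 or RA replicate 2. Of 54 DNA repair genes 4 were lower, led by Neil3. The count of lower repair genes was 1 without WT replicate 1 and 2 without WT replicate 2, either RA replicate in normal medium or either starved RA replicate. Of 37 ribosome biogenesis genes 3 were higher and 1 lower as deposited, and 0 were higher and 2 lower with total-read scaling. The higher count was 0 without WT replicate 1 and 1 without WT replicate 2, RA replicate 2 or either starved RA replicate.

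Genes that mark the position or origin of a fibroblast were also compared, since the lines could differ in it. Of 25 tested Hox genes 4 were lower and 0 higher, with a median of -0.16. Hoxb6 stood at 77.7 and 74.0 in WT and 59.4 and 58.4 in RA (log2 difference -0.36, SE 0.0579, limma BH-adjusted p = 0.000655), and the calls of Hoxa3, Hoxc5 and Hoxc6 were lost without WT replicate 1. The count of lower Hox genes was 1 without WT replicate 1 and 2 without WT replicate 2 or RA replicate 1. The median Hox gene stood at 0.12 and 0.05 in the WT and -0.12 and -0.04 in the RA samples relative to the mean of the 4. Of 32 mesenchymal patterning factors Foxf1 was higher, from 0.565 and 1.05 to 1.89 and 2.44, and Tbx18 lower (-0.27). The Tbx18 call was lost on leaving out any of the 4 samples in normal medium. Of 31 imprinted genes 2 were higher (Dcn and Dlk1, 0.58) and 2 lower (Airn and Impact, -0.18). The Dlk1 call was lost without WT replicate 2 (limma BH-adjusted p = 0.0554) and the Impact call without WT replicate 1 (limma BH-adjusted p = 0.257) or RA replicate 2 (limma BH-adjusted p = 0.111). Xist, among 7 sex-linked genes, stood at 245 and 237 in WT and 211 and 177 in RA, a call lost without WT replicate 1 or RA replicate 2, and its antisense partner Tsix had the same values.

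The complexes in which Pontin acts held 2 calls. Of 46 genes of these complexes Ruvbl1 was higher and Brd8, a subunit of TIP60, was lower (-0.18), a call that was lost without WT replicate 1, WT replicate 2 or RA replicate 2. This share of 4.35% is below that of all genes. Of 17 arginine methyltransferase and CARM1 axis genes 0 were called by limma (4 at an unadjusted p under 0.05, 0 by edgeR and 0 by DESeq2, and 2 lower with total-read scaling). Prmt1, the most abundant of these, stood at 219 and 226 in WT and 240 and 242 in RA. Of 17 circadian clock genes Per3 was lower (-0.34), a call lost in 6 of the alternatives, among them the ones without WT replicate 1, WT replicate 2 or RA replicate 2.

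Differences were also summed up by chromosome. The median difference of the tested genes lay between -0.01 and 0.03 on the 19 autosomes and X, with 408 to 1274 genes each, the chromosome of each gene being taken from GENCODE M21. This range was -0.02 to 0.03 without the interferon list, and -0.06 to -0.01 with total-read scaling, which moved all chromosomes together. Chromosome 6 had the highest median in each of these settings. Without the interferon list 94 of its 794 genes were higher and 17 lower, beside 5.69% and 2.99% of all genes outside the list. The 35 genes assigned to the mitochondrial chromosome had a median of -0.10, or -0.15 with total-read scaling.

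The same lines were also compared under glucose starvation, in 4 other samples that entered the same model and its estimate of the spread. There 62.9% of all tested genes were called between the lines, and outside the interferon list 30% were higher and 32.5% lower. Of the 911 genes higher in normal medium outside the list, 477 (52.4%) were also higher under starvation and 252 (27.7%) were lower. Of the 479 lower genes, 227 (47.4%) were also lower and 130 (27.1%) were higher. The called interferon-list genes differed from these, with 172 of 173 also higher under starvation, where 89.5% of the list was higher. The test of the difference between media was called for 975 of the 1390 genes, beside 50% of all genes outside the list. It reuses the normal samples in which the genes were called. Without WT replicate 1 in normal medium 272 genes were called in the same direction in both media, 364 without WT replicate 2 and 420 without RA replicate 2, against 704 with all samples.

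**Figure D5:**
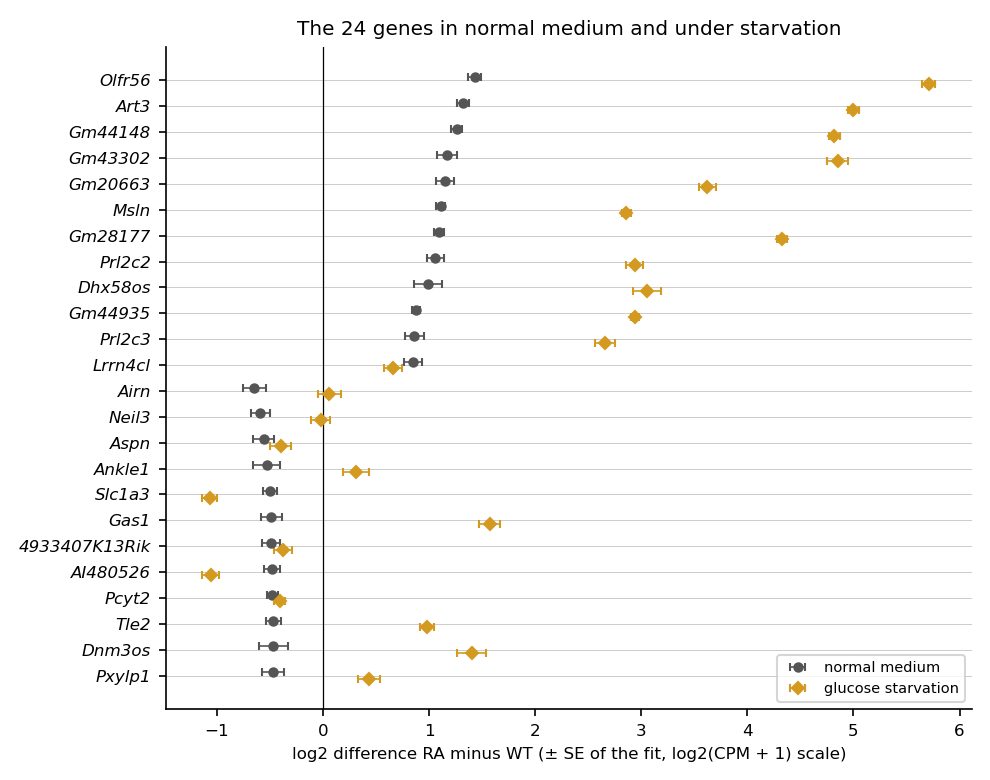
Log2 difference RA minus WT with the SE of the fit for the 12 highest and 12 lowest genes outside the interferon list, in normal medium (circles) and under glucose starvation (diamonds). The higher genes except Lrrn4cl lie further to the right under starvation, and Gas1, Tle2, Dnm3os, Pxylp1, Ankle1 and Airn cross from the left to the right of 0, Airn to 0.06, which was not called.

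The groups described above behaved differently across media. Ribosomal protein genes were higher in RA in normal medium and lower under starvation, where 0 of 79 were higher and 73 lower, and 39 of the 43 called genes were called in the opposite direction. Rps14 differed by 0.31 in normal medium and -0.25 under starvation. Transcripts of the collagen VI chains also reversed, with Col6a1 at -0.28 in normal medium and 1.40 under starvation. Of the endoplasmic reticulum genes 26 of 27 were lower under starvation, among them all 6 that were lower in normal medium, and Atf6, higher in normal medium, differed by -0.48. All 27 tested cytokine genes were higher under starvation, whether or not called in normal medium, so the 12 higher ones were too, Il1rl1 by 4.07. The interaction was not called for Txnip, at 0.61 in normal medium and 0.58 under starvation, nor for Fbxo32, at 0.64 in both. Starved Txnip stood at only 1.26 and 0.987 in WT and 2 and 2.35 in RA, where the log2(CPM + 1) scale understates a difference. The interaction was not called for Lrrn4cl, Pcyt2 and 4933407K13Rik either, which differed by 0.66, -0.41 and -0.38 under starvation.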

How the data were processed

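Libraries were made from polyA RNA (TruSeq RNA v2), sequenced paired-end on an Illumina HiSeq and mapped by the authors to mm9 (TopHat2 2.0.9, per the submitters' notes). Those notes also name bedtools and edgeR, without their roles. The annotation and the strand setting of counting are not given in the sources used here. The authors deposited 1 table of signal values, each a read count relative to a library size they had scaled (CPM). All nonzero values (100%) came out as whole reads, and 78.2% to 80.5% of counts from 1 to 9 were even, so mates may be counted separately and counting errors would be understated. Columns named minus were read as normal medium, as the study marks them. Groups were taken from the labels; the study says generally that experiments were done independently, but nothing ties these 2 libraries per group to separate cultures, so p-values measure the spread between samples, which may be technical.

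Of 49492 rows, 18085 were at 0 throughout and 26 bore date-like names. Genes with a CPM of at least 1 in at least 2 of 8 samples (16232) were fitted with limma 3.58.1 (R 4.3.3) on log2(CPM + 1), all 8 samples and 4 group means in 1 model, with a variance trend, 2-sided testing and BH adjustment over all genes. The log scale understates changes of low genes. edgeR 4.0.16 on recovered reads called 1555 genes, and DESeq2 1.42.0 called 1399. The members and all gene lists were chosen with earlier results of these data known. Named genes were Ruvbl1, Ruvbl2, the 12 highest and 12 lowest called genes outside the interferon list with a mean CPM of at least 10 and no overlap between groups, and up to 4 called members of each list with a mean of at least 1, or its most abundant member where none was called. The fit was tested on simulated data. Alternatives changed the scaling, filter, pseudocount, variance model, threshold, samples and block. GENCODE M21 and RefSeq promoters are on GRCm38, another build than the files', and served for names, overlaps and sequences. The partner of 1 overlapping gene is not reported here.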

Additional observations from a re-analysis of the deposited data

Results flagged for a closer look

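The results below were marked because the difference between RA and WT was not the same in normal medium and under starvation, by the interaction term of the fit (limma, BH-adjusted p under 0.05). Among the genes called in normal medium outside the interferon list this held for 975. Ruvbl1 was one of them, with a difference that was 0.34 higher under starvation on the log2 scale.

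For 11 of the 12 highest genes the difference grew under starvation. The interaction was 4.28 for Olfr56, 3.67 for Art3, 3.57 for Gm44148, 3.68 for Gm43302, 2.46 for Gm20663, 3.24 for Gm28177 and 2.06 for Dhx58os, the 7 genes that overlap an interferon-list gene. It was 1.75 for Msln, 1.88 for Prl2c2 and 1.80 for Prl2c3, which do not, and 2.06 for Gm44935, whose overlap could not be looked up.

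Among the lowest genes the interaction was positive for Gas1 (2.07), Dnm3os (1.87), Tle2 (1.45), Pxylp1 (0.90), Ankle1 (0.84), Airn (0.70) and Neil3 (0.57). It was negative for AI480526 (-0.58) and Slc1a3 (-0.56). AI480526 stood at 9.88 and 10 in RA in normal medium and at 10.2 and 9.83 under starvation, while in WT it stood at 14.4 and 14.2 and at 21.7 and 22.3. All these genes were chosen for their difference in normal medium, whose samples the interaction reuses.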

How the results depend on the processing

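The 14 settings tried for single genes changed sizes more often than directions, and the cause of each change was not tested. All called genes numbered 650 with no filter, 590 without the variance trend, 82 at 2-fold and 143 by edgeR at an adjusted p under 1e-05, and from 559 to 1706 on leaving out 1 sample. Genes higher outside the interferon list numbered 346, 281, 16 and 41 in the same order, 508 with total-read scaling, and from 301 to 1041 without 1 sample. Lower genes numbered 158, 157, 0 and 3, 1001 with total-read scaling, and from 105 to 497 without 1 sample. Genes called in the same direction under starvation ranged from 272 to 731. Ruvbl1 was not called without the trend (0.29, limma BH-adjusted p = 0.0824), and its difference lay between 0.19 and 0.38 without 1 sample. The chromosome medians reached 0.05 at a mean of at least 10, and -0.06 to -0.01 with total-read scaling. The direction of the larger count turned with total-read scaling for contractile genes (1 higher), p53 targets (3), DNA replication (1), ribosome biogenesis (0) and heat shock genes (1). It turned with quantile normalization for DNA replication (1) and ribosome biogenesis (0), and with median-ratio scaling for ribosome biogenesis (1). Heat shock counts ranged from 0 to 2 and metallothionein counts from 0 to 1 without 1 sample. mt-Co1 was at 0.00 with quantile normalization and from -0.03 to 0.00 without 1 sample. Of the comparisons run for the 12 lowest genes 15 of 168 lost the call, and for other named genes 229 of 1666. Replicate numbers are shared between groups in the labels, but the deviations of same-numbered samples correlated only at 0.12 with 2 per group, so they were not taken as pairs. With the replicate block 2059 genes were called, 1194 higher and 688 lower outside the list. Genes near 1 read, 0.0194 to 0.023 CPM in normal medium, are beyond what this depth resolves.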
